A study of Drosophila melanogaster with 9 samples.

Results

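The genes *piwi* and *vas* were examined in ChIP-seq of *Drosophila melanogaster bam* testis and of S2 cells, with RNA-seq of S2 cells. Both are read here as fixed dm3 intervals. The *piwi* interval is chr2L:10980001-10990000 (10 kb, 20 tiles of 500 bp) and the *vas* interval is chr2L:15056001-15076000 (20 kb, 40 tiles). Together they cover 2 intervals, 30 kb and 60 tiles, of 120366 kb and 240732 tiles on the sequenced chromosome arms (X, 2L, 2R, 3L, 3R and 4). The coordinates were given with the genes and were not chosen from read densities.

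Piwi is a nuclear Argonaute-family protein that binds piRNAs, the small RNAs that guide silencing of transposons, and it acts in germ cells and in somatic cells of the gonad. Vasa, the product of *vas*, is a DEAD-box RNA helicase of germ plasm and nuage and a standard marker of germ cells. H3K4me3 is typical of the promoters of active genes, H3K36me3 of transcribed gene bodies, and H3K27me3 of chromatin held silent by Polycomb proteins. RNA polymerase II (Pol II) marks both promoters and transcribed bodies.

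The *bam* testes came from *bam1/bam114-97* flies, in which germ cells over-proliferate without differentiating, and about 200 pairs were pooled for each ChIP. They hold germ cells and somatic cells of the testis together, so a smaller number of cells with a mark and less of the mark per cell cannot be told apart. S2 cells are a cultured line derived from embryos, and the same antibodies against H3K4me3, H3K36me3, Pol II and H3K27me3 were used in both. Testes were fixed with formaldehyde and sonicated, while the labels of the S2 libraries describe growing cells taken up in a digestion buffer, so the chromatin preparation and the sample cannot be told apart.

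There were 9 libraries, 1 per sample and target. There were no replicates, so the samples were not tested against each other, and every interval given is a 95% interval that covers counting error only. Kept reads per ChIP library numbered 1342183 to 3729366 in *bam* testis and 1250028 to 3013863 in S2 cells, and the S2 RNA library had 7289715. Densities are reads per kb per 1000000 kept reads (RPM per kb). The typical level of a library is its median tile on the arms, in RPM per kb. For H3K4me3 it was 5.69 in *bam* testis and 1.60 in S2 cells, and for H3K36me3 it was 4.69 in *bam* testis and 1.33 in S2 cells. For Pol II it was 5.96 in *bam* testis and 4.16 in S2 cells, and for H3K27me3 it was 6.97 in *bam* testis and 5.76 in S2 cells. The S2 libraries of H3K4me3 and H3K36me3 thus had more of their reads in few places. A ratio of *bam* testis over S2 cells in these marks is read beside the median ratio over windows of the interval's length. For the window ratios 1 RPM per kb was added to both densities, and the ratios of intervals and stretches have no such addition. Window ratios are therefore nearer 1 than plain ratios, most of all where S2 densities are low. The 2 kinds of ratio are not on the same scale.

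In *bam* testis, Pol II covered most of the *vas* interval. Of its 40 tiles, 30 reached 14 RPM per kb, which was the minimum for an enriched tile and corresponds to a Poisson p under 0.05 for 1 kb at a depth of 1000000 reads on 120 Mb, against a background of 13.2% of all tiles on the arms. In S2 cells 8 of the 40 tiles were enriched, against 11.9% of all tiles. All 8 were also enriched in *bam* testis. Another 22 were enriched in *bam* testis and not in S2 cells (background 6.64%), and 0 were enriched in S2 cells and not in *bam* testis (background 5.3%). In *bam* testis, 14 RPM per kb asked for slightly fewer reads per tile than a Poisson p under 0.05 at own depth for H3K4me3 and Pol II (10 against 11) and H3K36me3 (12 against 13). For H3K27me3 it asked for more (27 against 23). At that own-depth minimum 26 Pol II tiles of *vas* were called in *bam* testis and 8 in S2 cells. At a stricter minimum set by each library's own depth (Poisson p under 0.001), 22 tiles were called in *bam* testis and 5 in S2 cells.

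Over the whole *vas* interval Pol II had 617 reads or 22.98 RPM per kb in *bam* testis (21.2 to 24.9) and 376 reads or 9.767 RPM per kb in S2 cells (8.80 to 10.8). The density in *bam* testis was 2.35 times that in S2 cells (2.07 to 2.68), where the median ratio over 20-kb windows was 1.19, and 1.13% of the 6015 windows had a ratio as large. Within *bam* testis alone, 0.898% of the windows had as much Pol II as *vas*. The *vas* interval held 2.86 times the Pol II density of its 50-kb flanks in *bam* testis (2.59 to 3.17) and 1.74 times in S2 cells (1.54 to 1.96). The flank-relative value of *bam* testis over S2 cells was therefore 1.65 (1.41 to 1.92), and it was 1.23 against the median tile of the flanks.

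The *bam* testis Pol II of *vas* lay in long runs of enriched tiles. The run at chr2L:15060001-15063500 averaged 30.9 RPM per kb in *bam* testis and 13.8 in S2 cells, and it held the highest tile, chr2L:15061501-15062000, with 53.6 RPM per kb in *bam* testis (37.6 to 74.3) and 2.08 in S2 cells. The runs at chr2L:15069001-15071000 and chr2L:15071501-15075500 averaged 28.7 and 24.8 RPM per kb in *bam* testis, against 3.64 and 2.86 in S2 cells. Between these, the run at chr2L:15064501-15065500 had 28.3 RPM per kb in *bam* testis and 10.9 in S2 cells. In the next, chr2L:15066001-15068500, the samples were closer, with 24.1 RPM per kb in *bam* testis and 19.1 in S2 cells. A further run at chr2L:15056501-15058000 had 23.4 RPM per kb in *bam* testis and 25.6 in S2 cells. Pol II in S2 cells was thus as high as in *bam* testis at the left end of the interval and low over its right end. The highest S2 tile, chr2L:15057501-15058000, had 38.7 RPM per kb in *bam* testis and 56.1 in S2 cells (42.2 to 73.2).

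**Figure D1:**
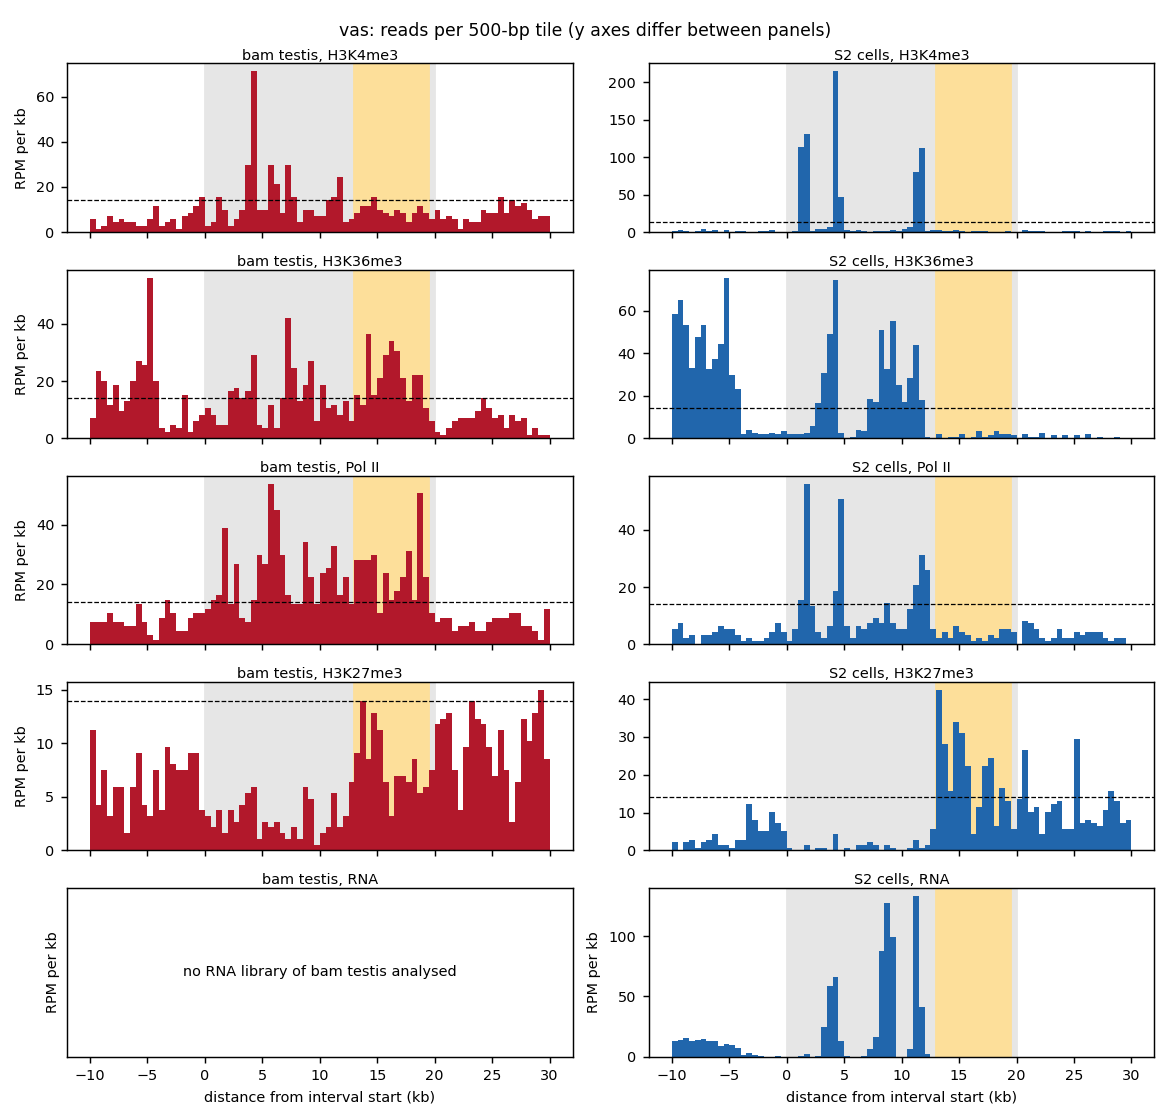
Density (RPM per kb) in 500-bp tiles of the *vas* interval (grey) and 10 kb on either side, against distance from the interval start in kb, with *bam* testis on the left, S2 cells on the right, the 14 RPM per kb line dashed and y axes that differ between panels. The yellow stretch of 6.5 kb has Pol II and H3K36me3 in *bam* testis, and in S2 cells it has H3K27me3 and 0 RNA reads.

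H3K4me3 stood at partly different places of *vas* in the 2 samples. Enriched tiles numbered 11 of 40 in *bam* testis (background 10.6%) and 6 of 40 in S2 cells (background 7.46%). Of these, 4 were shared, 7 were enriched in *bam* testis and not in S2 cells (background 5.9%) and 2 in S2 cells and not in *bam* testis (background 2.75%). The higher count of *bam* testis depended on the threshold, since at the stricter own-depth minimum there were 5 tiles in *bam* testis and 6 in S2 cells. The highest tile was the same in both, chr2L:15060001-15060500, with 71.1 RPM per kb in *bam* testis (52.8 to 93.7) and 214 in S2 cells (180 to 254). The runs at chr2L:15061501-15062500 and chr2L:15063001-15064000 had 25.6 and 22.8 RPM per kb in *bam* testis, against 2.40 and 0.80 in S2 cells. The first of these runs coincided with the highest Pol II tile of *bam* testis. The opposite case was chr2L:15057001-15058000, with 12.8 RPM per kb in *bam* testis and 122 in S2 cells. At chr2L:15067001-15068000 H3K4me3 was present in both, at 19.9 RPM per kb in *bam* testis and 96.0 in S2 cells. Of the enriched H3K4me3 tiles, 9 of 11 were also enriched for Pol II in *bam* testis, where 45.3% of all H3K4me3 tiles were, and 6 of 6 in S2 cells, where 69.8% were. Of all 40 *vas* tiles, 30 (75%) were enriched for Pol II in *bam* testis and 8 (20%) in S2 cells. The 9 of 11 in *bam* testis was thus close to the share of the whole interval.

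Over the whole interval, H3K4me3 at *vas* was 12.7 RPM per kb in *bam* testis (11.4 to 14.1) and 19.2 in S2 cells (17.6 to 21.0), a ratio of 0.662 (0.575 to 0.760) where the median 20-kb window had 2.15. A ratio as large was found in 78.9% of the 20-kb windows, so lower ratios were not rare. The interval was 1.18 times its flanks in *bam* testis (1.05 to 1.33) and 1.98 times in S2 cells (1.78 to 2.20). The flank-relative value of *bam* testis over S2 cells was 0.596 (0.510 to 0.697), and it was 0.124 against the median tile of the flanks, which in S2 cells was at the library's typical level.

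H3K36me3 was enriched in 21 of the 40 *vas* tiles in *bam* testis (background 16.3%) and in 14 in S2 cells (background 16.1%). Of these, 9 were shared, 12 were enriched in *bam* testis and not in S2 cells (background 5.55%) and 5 in S2 cells and not in *bam* testis (background 5.31%). At the stricter own-depth minimum the counts were 12 in *bam* testis and 13 in S2 cells, so the higher count of *bam* testis was not kept. The longest *bam* testis run, chr2L:15070001-15073500, had 26.8 RPM per kb in *bam* testis and 1.14 in S2 cells. The longest S2 run, chr2L:15063001-15068000, had 18.1 RPM per kb in *bam* testis and 30.7 in S2 cells. Middle runs of *bam* testis were chr2L:15062501-15064000, with 26.96 RPM per kb in *bam* testis and 13.05 in S2 cells, and chr2L:15064501-15065500, with 22.85 in *bam* testis and 43.8 in S2 cells. The mark was thus present in *bam* testis in the left, middle and right of the interval and in S2 cells over its left and middle tiles. Summed over the interval the difference was small, at 16.2 RPM per kb in *bam* testis (14.9 to 17.6) and 13.1 in S2 cells (12.2 to 14.0), a ratio of 1.24 (1.11 to 1.38) below the median window ratio of 1.56. The flank-relative ratio of 1.26 (1.11 to 1.42) turned to 0.966 with 100-kb flanks and to 0.233 against the median tile of the flanks. Across the 40 tiles the Spearman correlation of *bam* testis with S2 cells was 0.145 for H3K36me3 and 0.136 for Pol II, as a description of neighbouring tiles that are not independent.

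No tile of *vas* reached 14 RPM per kb for H3K27me3 in *bam* testis, which is 0 of 40 against a background of 12.5%, whereas 9 of 40 did in S2 cells (background 19.9%). These 9 were enriched in S2 cells and not in *bam* testis (background 11.6%), and 0 were enriched in *bam* testis and not in S2 cells (background 4.2%). The *bam* testis count rests on the threshold, because its highest tile, chr2L:15069501-15070000, had 13.9 RPM per kb in *bam* testis (9.11 to 20.4) and 28.1 in S2 cells. With the minimum set at the library's own depth (Poisson p under 0.05), 2 tiles were called there in *bam* testis. The order of the tiles was alike, with a Spearman correlation of 0.777 over the 40 tiles, and both samples had more H3K27me3 in the right flank than in the left. The right flank held 11.3 RPM per kb in *bam* testis and 12.6 in S2 cells, and the left flank 6.73 in *bam* testis and 5.84 in S2 cells. Over the whole interval H3K27me3 was 4.81 RPM per kb in *bam* testis (4.33 to 5.34) and 7.66 in S2 cells (6.95 to 8.43). The flank-relative ratio was 0.643 (0.554 to 0.747). In each sample, 0 of the 40 tiles were enriched for H3K4me3 and H3K27me3 together, but such tiles were rare everywhere, at 0.612% of all tiles in *bam* testis and 0.0569% in S2 cells, so the 0 says nothing particular of *vas*. In *bam* testis the count also rests on the threshold, since the tile chr2L:15070501-15071000 had 15.6 RPM per kb of H3K4me3 (11 reads) and 12.9 of H3K27me3 (24 reads), and these reach the own-depth minimums of 11 and 23 reads.

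RNA of S2 cells was present at 1 or more RPM per kb in 14 of the 40 *vas* tiles (background 25.6%), and 22 tiles had 0 reads. The interval had 2501 reads or 17.2 RPM per kb (16.5 to 17.8), 1.80 times its flanks (1.72 to 1.89). That ratio was 3.34 with 20-kb flanks and 3.60 with 100-kb flanks. The reads lay in 3 runs. These were chr2L:15059001-15061000 with 40.6 RPM per kb, chr2L:15063001-15065500 with 67.3 and chr2L:15066501-15068500 with 45.8, and the highest tile, chr2L:15067001-15067500, had 134 RPM per kb. All 3 runs lay left of the tiles with H3K27me3.

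These runs cannot be given to *vas* or to another gene. In the RefSeq annotation of Release 6, used here for names and order and not for coordinates, *vas* overlaps *solo*, which encodes a protein of meiotic sister chromatid cohesion, and *vig*, a gene inside a *vas* intron whose protein was found with the RNA interference complex. The neighbours are *TfIIS*, an elongation factor of Pol II, on 1 side and *wwk* on the other. The RNA libraries did not keep strand, the reads are 36 bp long, and no dm3 annotation was used.

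The right part of the *vas* interval differed between the samples in every target. The contiguous tiles in which S2 H3K27me3 most exceeded its flank mean were chr2L:15069001-15075500 (6.5 kb, 13 tiles). The stretch was chosen after values were seen and by S2 H3K27me3, so that density is a description. The other libraries were not used to set its bounds. In S2 cells, however, few tiles were enriched for H3K27me3 together with H3K4me3 (0.0569% of all tiles) or H3K36me3 (0.372%). The choice therefore also favours low S2 values of H3K4me3 and H3K36me3, and the same was not counted for Pol II and RNA. The ratios in the stretch are descriptions as well. H3K27me3 there was 8.13 RPM per kb in *bam* testis (7.03 to 9.34) and 20.9 in S2 cells (18.9 to 23.1), with tiles between 3.22 and 13.9 in *bam* testis and between 4.32 and 42.5 in S2 cells. In *bam* testis too it was above the rest of the interval, by 2.53 times (2.04 to 3.13), though not above the flanks, at 0.901 times (0.776 to 1.04).

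Pol II in this *vas* stretch was 24.9 RPM per kb in *bam* testis (21.7 to 28.4) and 3.20 in S2 cells (2.28 to 4.35), 7.78 times as high in *bam* testis (5.53 to 11.2), where the median 20-kb window had a ratio of 1.19. The windows are longer than the stretch and were not chosen by any mark, and their ratios include the added 1 RPM per kb. They therefore do not show how unusual the stretch is among stretches of its length. Of its 13 tiles, 12 were enriched in *bam* testis (background 13.2%) and 0 in S2 cells (background 11.9%). The lowest *bam* testis tile had 10.4 RPM per kb and the highest S2 tile 6.23. These are neighbouring tiles of 1 library per sample and not replicates. How many other stretches differ as much was not counted. H3K36me3 was 21.7 RPM per kb in *bam* testis (19.1 to 24.7) and 1.43 in S2 cells (0.9498 to 2.07), 15.2 times as high in *bam* testis (10.3 to 23.4) where the median window had 1.56. For this mark 10 tiles were enriched in *bam* testis (background 16.3%) and 0 in S2 cells (background 16.1%). The lowest tile for H3K36me3 had 10.6 RPM per kb in *bam* testis, and the highest had 3.32 in S2 cells. For H3K4me3 the stretch had 9.52 RPM per kb in *bam* testis (7.62 to 11.7) and 1.35 in S2 cells (0.676 to 2.42), 7.03 times as high in *bam* testis (3.74 to 14.6) where the median window had 2.15. The median tiles of these libraries were 5.69 in *bam* testis and 1.60 in S2 cells, so H3K4me3 was above its median in *bam* testis and not in S2 cells, and by less than Pol II and H3K36me3 were.

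S2 RNA in the *vas* stretch was 0 reads, beside 25.4 RPM per kb in the rest of the interval. A count of 0 allows up to about 3 reads, which here would be 0.0633 RPM per kb. The flank-relative ratios of *bam* testis over S2 cells in the stretch were 6.34 for H3K4me3 (3.37 to 11.9), 5.45 for Pol II (3.85 to 7.72) and 15.4 for H3K36me3 (10.4 to 22.9). H3K4me3 in *bam* testis was itself not above its flanks there, at 0.884 times (0.703 to 1.10). Only 1 of the 13 tiles was enriched for it in *bam* testis (background 10.6%), and the S2 library had 11 reads in the stretch. For H3K27me3 the flank-relative ratio was 0.398, a low value that the choice of the stretch by S2 H3K27me3 builds in.

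At *piwi*, Pol II differed less between the samples. It was 217 reads or 16.2 RPM per kb in *bam* testis (14.1 to 18.5) and 224 reads or 11.6 RPM per kb in S2 cells (10.2 to 13.3). The ratio of 1.39 (1.15 to 1.68) stood beside a median of 1.22 over 10-kb windows, and 37.8% of the 12033 windows had a ratio as large. Enriched Pol II tiles numbered 12 of 20 in *bam* testis (background 13.2%) and 7 of 20 in S2 cells (background 11.9%), of which 7 were shared. Another 5 were enriched in *bam* testis and not in S2 cells (background 6.64%), and 0 in S2 cells and not in *bam* testis (background 5.3%). The difference depended on the threshold, since at the stricter own-depth minimum 3 tiles were called in *bam* testis and 3 in S2 cells. With tiles moved by 250 bp the counts were 12 in *bam* testis and 4 in S2 cells. The interval was 1.52 times its flanks in *bam* testis (1.31 to 1.75) and 1.19 times in S2 cells (1.03 to 1.37). With 20-kb flanks these values were 1.01 in *bam* testis and 0.688 in S2 cells. The flank-relative ratio of *bam* testis over S2 cells was 1.28 (1.05 to 1.56), and 0.888 against the median tile of the flanks.

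The highest *piwi* Pol II tile of *bam* testis, chr2L:10987001-10987500, had 41.7 RPM per kb in *bam* testis (27.7 to 60.3) and 29.1 in S2 cells, so it was a local high point in both. The run around it, chr2L:10986501-10988000, had 25.3 RPM per kb in *bam* testis and 18.0 in S2 cells. The adjoining H3K4me3 run, chr2L:10987501-10988500, had 23.5 RPM per kb in *bam* testis and 69.6 in S2 cells. A second place with Pol II and H3K4me3 lay at the right end of the interval. At chr2L:10989001-10990000 Pol II was 17.9 RPM per kb in *bam* testis and 31.2 in S2 cells, and H3K4me3 was 22.0 in *bam* testis and 110 in S2 cells.

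**Figure D2:**
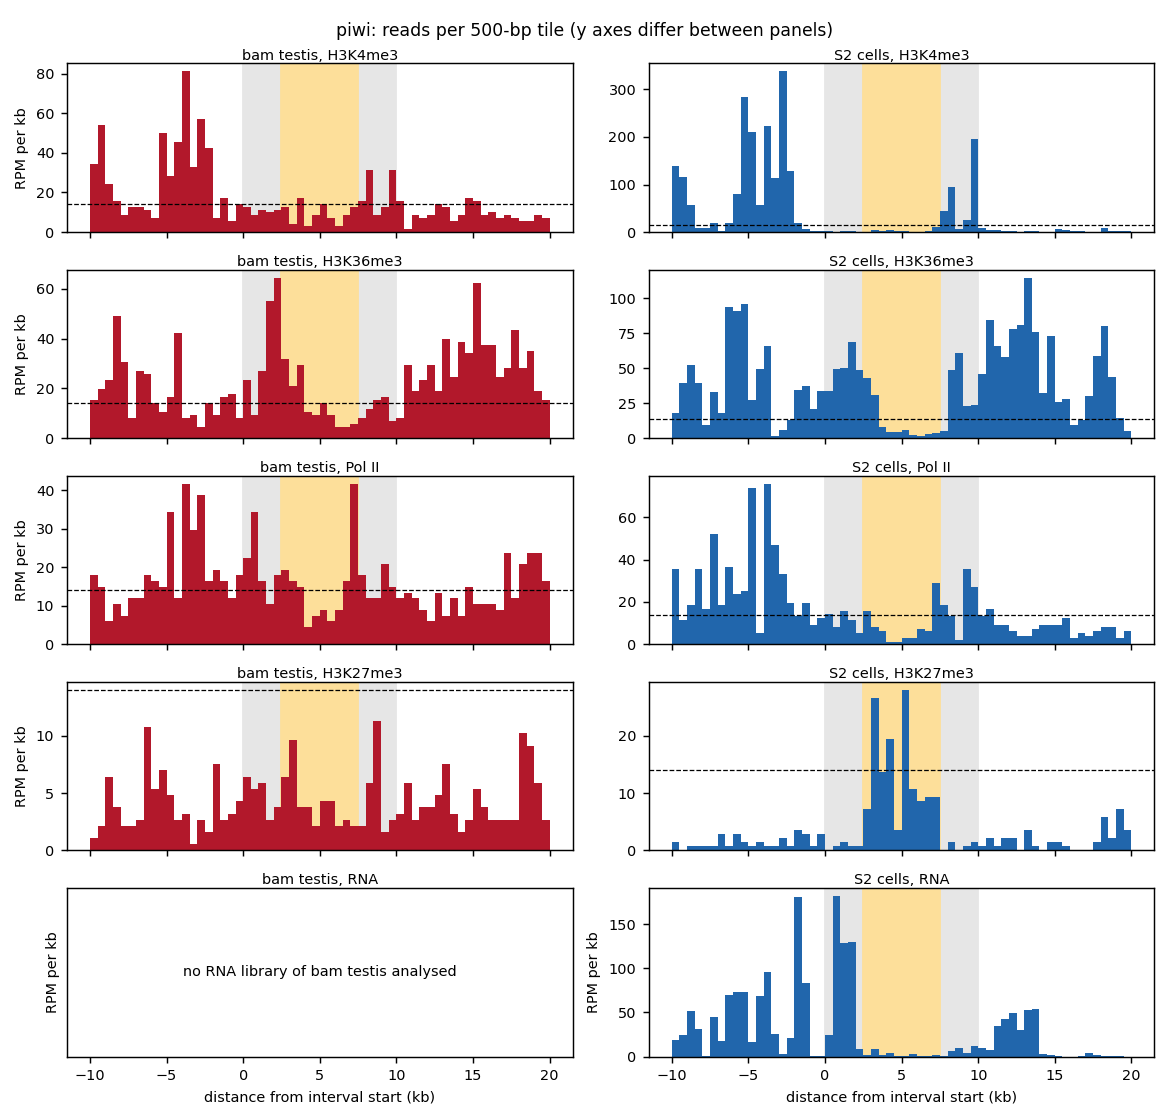
Density (RPM per kb) in 500-bp tiles of the *piwi* interval (grey) and 10 kb on either side, against distance from the interval start in kb, with *bam* testis on the left, S2 cells on the right, the 14 RPM per kb line dashed and y axes that differ between panels. H3K27me3 in the yellow stretch of 5 kb averaged 4.13 RPM per kb in *bam* testis and 13.7 in S2 cells, and the tiles to its right carry H3K4me3 and Pol II in both samples.

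H3K4me3 was enriched in 5 of the 20 *piwi* tiles in *bam* testis (background 10.6%) and in 4 in S2 cells (background 7.46%). Of these 3 were shared, 2 were enriched in *bam* testis alone (background 5.9%) and 1 in S2 cells alone (background 2.75%). At the stricter own-depth minimum the counts were 2 in *bam* testis and 4 in S2 cells, the opposite order. Over the interval it was 12.2 RPM per kb in *bam* testis (10.5 to 14.2) and 20.0 in S2 cells (17.6 to 22.6). This was a ratio of 0.612 (0.501 to 0.746), against a median window ratio of 2.54. A ratio as large was found in 81.95% of the 10-kb windows, so lower ratios were not rare. Relative to the flanks the samples were alike, at 0.876 in *bam* testis (0.745 to 1.02) and 0.863 in S2 cells (0.756 to 0.983), a ratio of 1.01 (0.829 to 1.24). With 100-kb flanks these values were 1.15 in *bam* testis and 1.62 in S2 cells, both above 1. With 20-kb flanks the ratio of *bam* testis over S2 cells was 1.35, with 100-kb flanks 0.711, and against the median tile of the flanks 0.115.

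H3K36me3 was enriched in 10 of the 20 *piwi* tiles in *bam* testis (background 16.3%) and in 11 in S2 cells (background 16.1%). Of these 8 were shared, 2 were enriched in *bam* testis alone (background 5.55%) and 3 in S2 cells alone (background 5.31%). The left end carried most of it in both. The run at chr2L:10981001-10984000 had 38.1 RPM per kb in *bam* testis and 41.6 in S2 cells, and the highest tiles were adjacent, chr2L:10982001-10982500 in *bam* testis with 64.5 RPM per kb and chr2L:10981501-10982000 in S2 cells with 69.0. The right end differed, with 12.6 RPM per kb in *bam* testis and 39.2 in S2 cells at chr2L:10988001-10990000. The interval density was 18.9 RPM per kb in *bam* testis (16.9 to 21.1) and 26.0 in S2 cells (24.2 to 27.9). Relative to the flanks it was 1.498 in *bam* testis (1.33 to 1.69) and 1.40 in S2 cells (1.30 to 1.51). Both fell under 1 with 20-kb flanks, to 0.828 in *bam* testis and 0.618 in S2 cells. Tile by tile the samples were more alike than at *vas*, with Spearman correlations of 0.694 for H3K36me3 and 0.695 for Pol II over the 20 tiles.

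H3K27me3 was enriched in 0 of the 20 *piwi* tiles in *bam* testis (background 12.5%) and in 3 in S2 cells (background 19.9%), and the 3 were not enriched in *bam* testis (background 11.6%). The S2 share of 15.0% was below that of all tiles, so the count itself does not set *piwi* apart. The 3 tiles were chr2L:10983001-10983500 with 9.65 RPM per kb in *bam* testis and 26.6 in S2 cells, chr2L:10984001-10984500 with 3.75 in *bam* testis and 19.4 in S2 cells, and chr2L:10985001-10985500 with 4.29 in *bam* testis and 28.1 in S2 cells. They alternated with tiles below the threshold. The order of tiles was not shared, with a Spearman correlation of 0.00344 over the 20 tiles. The interval had 4.45 RPM per kb in *bam* testis (3.80 to 5.18) and 7.20 in S2 cells (6.23 to 8.26), and 0.696 times the flanks in *bam* testis (0.591 to 0.815) against 1.08 in S2 cells (0.926 to 1.25). With 20-kb flanks these were 0.93 in *bam* testis and 2.62 in S2 cells, and with 100-kb flanks 0.569 in *bam* testis and 0.871 in S2 cells. The flank-relative ratio was 0.647 (0.522 to 0.801), and 0.355 with 20-kb flanks. No *piwi* tile was enriched for H3K4me3 and H3K27me3 together in either sample, where the backgrounds were the 0.612% in *bam* testis and 0.0569% in S2 cells given above. In S2 cells 1 tile, chr2L:10983001-10983500, was enriched for H3K36me3 and H3K27me3 (background 0.372%).

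**Figure D3:**
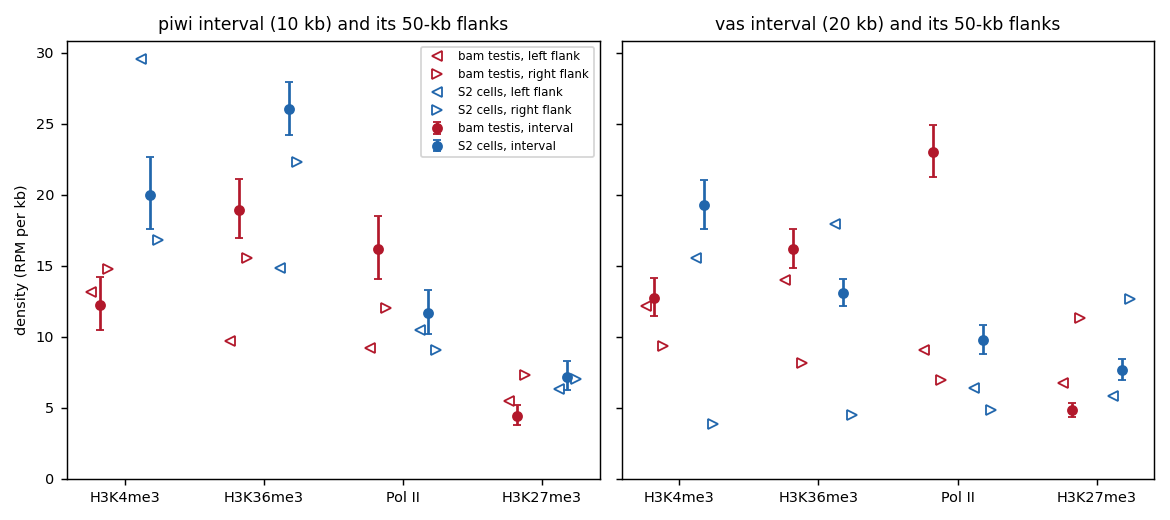
Density (RPM per kb) of the *piwi* and *vas* intervals (circles, with exact Poisson 95% intervals) and of their left and right 50-kb flanks (triangles) for each ChIP target, *bam* testis in red and S2 cells in blue. Pol II at *vas* in *bam* testis, at 22.98 RPM per kb, lies above both of its flanks and above the 9.767 of S2 cells.

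S2 RNA at *piwi* came to 1920 reads or 26.3 RPM per kb (25.2 to 27.5), with 15 of the 20 tiles at 1 or more RPM per kb (background 25.6%). It was concentrated at the left end. The tile chr2L:10980501-10981000 alone had 182 RPM per kb, the run chr2L:10980001-10984500 averaged 54.3, and the run at the right end, chr2L:10988001-10990000, averaged 7.61. In Release 6 *piwi* is overlapped by *SCAR*, a regulator of actin assembly, with *ATPsynG*, a subunit of the mitochondrial ATP synthase, before it and *CG12253*, *TTLL4A* and *aub*, another Piwi-family gene, after it. The reads at the ends were not assigned to a gene. The interval was 1.41 times its flanks in RNA (1.34 to 1.48), but 0.627 times 20-kb flanks, 2.79 times 100-kb flanks and, with all copies of identical reads, 0.722 times the 50-kb flanks.

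The *piwi* stretch in which S2 H3K27me3 most exceeded its flank mean was chr2L:10982501-10987500 (5 kb, 10 tiles), chosen in the same way after values were seen. H3K27me3 there was 4.13 RPM per kb in *bam* testis (3.26 to 5.16) and 13.7 in S2 cells (11.8 to 15.8), where the rest of the interval had 4.77 in *bam* testis and 0.720 in S2 cells. S2 RNA was 83 reads or 2.28 RPM per kb (1.81 to 2.82), against 50.4 in the rest of the interval. In contrast to *vas*, RNA was therefore low in the stretch but present.

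Pol II in the *piwi* stretch was 14.5 RPM per kb in *bam* testis (11.7 to 17.6) and 8.10 in S2 cells (6.41 to 10.1), 1.78 times as high in *bam* testis (1.31 to 2.44), where the median 10-kb window had a ratio of 1.22. As at *vas*, the windows are longer than the stretch and were not chosen by any mark, and their ratios include the added 1 RPM per kb. H3K36me3 was 14.1 RPM per kb in *bam* testis (11.7 to 16.8) and 10.8 in S2 cells (9.16 to 12.5), 1.31 times as high in *bam* testis (1.02 to 1.67), which was below the 1.89 of the median window. Most of the S2 reads lay in 2 tiles at the left edge. The tile chr2L:10982501-10983000 had 31.6 RPM per kb in *bam* testis and 43.1 in S2 cells. The next, chr2L:10983001-10983500, had 21.1 in *bam* testis and 30.5 in S2 cells. The median tile of the stretch had 9.96 in *bam* testis and 4.645 in S2 cells. H3K4me3 was 9.10 RPM per kb in *bam* testis (7.01 to 11.6) and 2.72 in S2 cells (1.58 to 4.36), 3.35 times as high in *bam* testis (1.94 to 6.09), an interval that includes the 2.54 of the median window. Tiles overlapped between the samples for each of these targets, with Pol II from 4.47 to 41.7 RPM per kb in *bam* testis and from 1.04 to 29.1 in S2 cells. Of the 10 tiles, 5 were enriched for Pol II in *bam* testis (background 13.2%) and 2 in S2 cells (background 11.9%). For H3K36me3, 4 were enriched in *bam* testis (background 16.3%) and 2 in S2 cells (background 16.1%). For Pol II and H3K36me3 the intervals of these ratios lay below those of the *vas* stretch, where the ratios were 7.78 and 15.2.

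**Figure D4:**
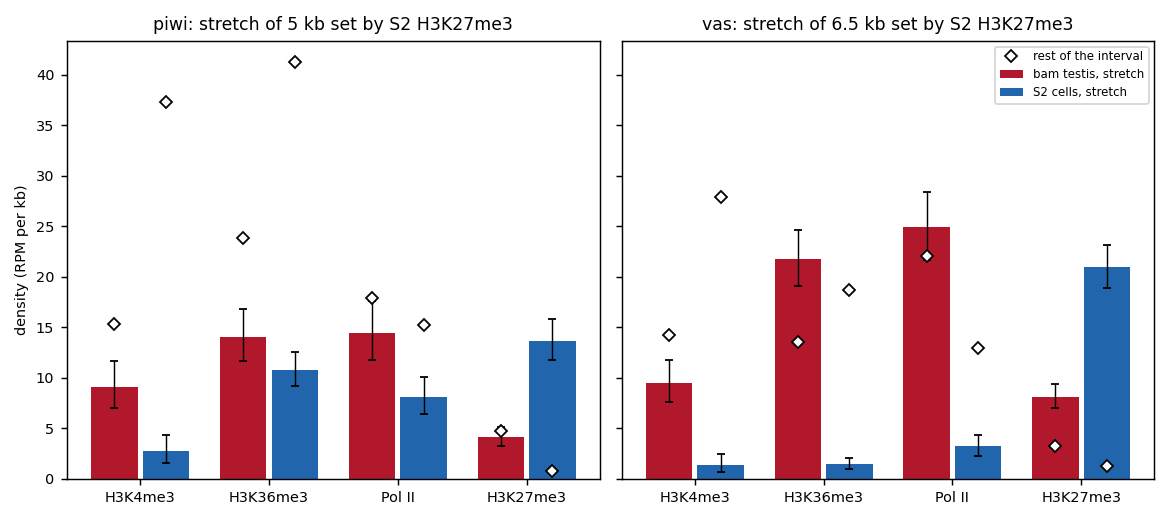
Density (RPM per kb, bars from 0 with exact Poisson 95% intervals) in the *piwi* stretch of 5 kb and the *vas* stretch of 6.5 kb, *bam* testis left of S2 cells for each target, with diamonds for the rest of the same interval. In the *vas* stretch H3K36me3 was 21.7 RPM per kb in *bam* testis and 1.43 in S2 cells, while in the *piwi* stretch it was 14.1 in *bam* testis and 10.8 in S2 cells. The median tile of the *piwi* stretch for this mark was lower, at 9.96 in *bam* testis and 4.645 in S2 cells.

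Within a library, the *vas* and *piwi* intervals can be compared per kb, as means over intervals of unlike length that other genes overlap. In *bam* testis, *vas* had 1.42 times the Pol II of *piwi* (1.22 to 1.67) and 0.855 times its H3K36me3 (0.744 to 0.983). In S2 cells *vas* had 0.839 times the Pol II of *piwi* (0.709 to 0.995), 0.503 times its H3K36me3 (0.455 to 0.556) and 0.651 times its RNA (0.614 to 0.692). For H3K4me3 the ratio of *vas* over *piwi* was 1.04 in *bam* testis (0.865 to 1.26) and 0.962 in S2 cells (0.824 to 1.13), and for H3K27me3 it was 1.08 in *bam* testis (0.897 to 1.31) and 1.07 in S2 cells (0.898 to 1.27). For these marks the means of the 2 intervals did not differ beyond counting error in either sample. Reads were not assigned to genes, so this is not a comparison of the 2 genes.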

How the data were processed

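ChIP-seq of *bam* testis and S2 cells (4 targets each) and RNA-seq of S2 cells were used, 1 library each. The authors used ELAND with at most 2 mismatches against dm3 for the ChIP reads and kept unique alignments. Their methods describe this for 25-bp reads and do not say whether it covers the 36-bp RNA reads. The deposited files list 1 aligned read per line, with no limit on copies, so positions were counted. RNA-seq of *bam* testis, H3 and input libraries were not analysed here.

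At most 3 reads with the same start and strand were kept, and ChIP 5′ ends were moved 80 bp inward. Densities have exact Poisson intervals, ratios exact binomial (Clopper-Pearson) intervals and ratios of ratios log-scale intervals, all at 95%. PCR reads are not independent molecules, so these cover counting error only. The tile with the highest density and each run of 2 or more enriched tiles are named, by rule. The members and lists were chosen with earlier results of these data known. Alternatives were other copy limits, no shift, thinning to 1250028 reads, thresholds at own depth, tiles moved by 250 bp and flanks of 20 or 100 kb or their median tile. The steps were tested on simulated data. Python 3.11.15, numpy 2.4.6, pandas 2.3.3, scipy 1.17.1 and matplotlib 3.10.9 were used.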

Additional observations from a re-analysis of the deposited data

Results flagged for a closer look

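Pairs of flank-relative densities that lay on opposite sides of 1 in *bam* testis and S2 cells are listed here, except for H3K27me3 in the stretches, which were chosen by that mark in S2 cells. With 1 library per sample and target, none of these differences was tested. The choice of the stretches also favours low S2 H3K36me3, since few S2 tiles were enriched for it together with H3K27me3. In the *vas* stretch, H3K36me3 was 1.97 times the 50-kb flanks in *bam* testis against 0.127 in S2 cells, and Pol II was 3.10 times the flanks in *bam* testis against 0.569 in S2 cells. In the *piwi* stretch, H3K36me3 was 1.11 times the flanks in *bam* testis against 0.579 in S2 cells, and Pol II was 1.36 times the flanks in *bam* testis against 0.830 in S2 cells. Of these, H3K36me3 in *bam* testis (0.918 to 1.34) and Pol II in S2 cells (0.653 to 1.04) had counting intervals that include 1. Over the whole *piwi* interval, H3K27me3 was 0.696 times the flanks in *bam* testis against 1.08 in S2 cells. The S2 interval of 0.926 to 1.25 includes 1, and the S2 value was 0.871 with 100-kb flanks.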

How the results depend on the processing

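Of 56 alternative values of *bam* testis over S2 cells in flank-relative density, 41 stayed within the counting interval and 15 moved by more, all through the choice of flanks, of which 7 came to lie on the other side of 1. In 3 of these the counting interval of the main value lay wholly on 1 side of 1. With 20-kb flanks the *piwi* ratio was 1.35 for H3K4me3, 1.34 for H3K36me3 and 0.355 for H3K27me3, and the *vas* ratio 1.49 for H3K36me3. With 100-kb flanks it was 0.711 for H3K4me3 and 0.827 for H3K36me3 at *piwi*, and 0.414 for H3K4me3 and 0.966 for H3K36me3 at *vas*. Against the median tile of the flanks it was 0.115 for H3K4me3, 0.235 for H3K36me3, 0.888 for Pol II and 0.453 for H3K27me3 at *piwi*, and 0.124 for H3K4me3, 0.233 for H3K36me3 and 1.23 for Pol II at *vas*. S2 RNA over flanks was 0.627 (20 kb), 2.79 (100 kb), 96.0 (median tile) and 0.722 (all copies) at *piwi*, and 3.34 (20 kb) and 3.60 (100 kb) at *vas*, where the median flank tile was 0 and gave no ratio. Single libraries also turned direction. With 20-kb flanks *piwi* had 0.828 for H3K36me3 in *bam* testis, 0.618 for H3K36me3 and 0.688 for Pol II in S2 cells, and *vas* had 0.866 for H3K36me3 and 1.08 for H3K27me3 in S2 cells. In S2 cells H3K4me3 at *piwi* was 1.62 with 100-kb flanks and 12.5 against the median tile, and H3K27me3 at *vas* was 1.07 against the median tile. Counts of enriched tiles kept within 1.5 times in 108 of 120 values, with 12 exceptions. For *bam* testis H3K27me3 at *vas* 1 or 2 tiles stood in place of 0 under 4 alternatives. At a Poisson p under 0.001, *vas* had 5 tiles in place of 11 for H3K4me3 and 12 in place of 21 for H3K36me3 in *bam* testis, and 5 in place of 8 for Pol II in S2 cells. There *piwi* had 2 in place of 5 for H3K4me3 and 3 in place of 12 for Pol II in *bam* testis, and 3 in place of 7 for Pol II in S2 cells. In S2 cells *piwi* had 4 Pol II tiles with tiles moved by 250 bp and 5 H3K27me3 tiles in place of 3 with no shift. Of 48 stretch ratios, from alternatives chosen after seeing the data, 46 moved by less than the counting interval, the others being *piwi* H3K36me3 at 1.49 (100 kb) and H3K27me3 at 0.173 (20 kb). The *piwi* stretch was 4.5 kb with 100-kb flanks, and the *vas* stretch was 6.5 kb with each width. Both were searched for inside the interval only, so H3K27me3 beyond its ends could not change these bounds. No paired analysis was possible because each group had 1 library. A tile at 14 RPM per kb held 9 to 27 reads, which limits every single-tile value.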

Other observations

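Over all 9 libraries, each scaled to its median window on the log2 scale, the 10-kb window most like *piwi* was chr2R:14160001-14170000, at a Euclidean distance of 0.774 where the median of 12022 windows was 7.01. The next were chr2L:10320001-10330000 (0.811) and chr3R:25050001-25060000 (0.866). For *vas* the nearest of 6008 windows of 20 kb were chr2L:18820001-18840000 (1.02), chr3R:27860001-27880000 (1.12) and chr3L:16360001-16380000 (1.13), beside a median of 5.64. Pol II in *bam* testis was 1.68 above the median window on the log2 scale at *vas* and 1.07, 0.934 and 0.993 above it in these windows. Genes in them were not named, because no dm3 annotation was used.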
